A study of Mus musculus with 4 samples.

Results

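Genes that buffer or export cytosolic calcium were followed in lumbar cord RNA from wild type (WT) mice and from ALS (G93A) mice. The 10 members are the calcium-binding proteins Pvalb, Calb1 and Calb2, the sodium-calcium exchangers Slc8a1, Slc8a2 and Slc8a3, and the plasma membrane calcium pumps Atp2b1, Atp2b2, Atp2b3 and Atp2b4. They were chosen by gene name, and all 10 were found among the 18674 gene names of the deposited table. The study sequenced 4 libraries. WT and G93A each had 1 library from mice given vehicle and 1 from mice given SD, where SD is spermidine, a natural polyamine that the study tested as an inhibitor of the histone demethylase LSD1. WT mice lack the transgene, and G93A mice of the H1 high-expresser strain carry a mutant human SOD1 transgene. The colony had a mixed B6/SJL background. SD or the vehicle PBS was given 4 times a week over 30 days, and RNA was taken when the mice were 100 days old. For SD injections in general the methods name 5 mg/kg, given intraperitoneally. The transgene is active in many cell types and not only in motor neurons, and the number of animals behind a library is not given in the sources used here. With 1 library per group no difference has a replicate check, and no p-value is given.

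Calcium enters neurons with every action potential and has to be bound and removed. Parvalbumin, calbindin and calretinin (encoded by Pvalb, Calb1 and Calb2) are EF-hand proteins that bind calcium in the cytosol within moments of entry. Exchangers of the Slc8a (NCX) family move calcium out in trade for sodium, with high capacity, and pumps of the Atp2b (PMCA) family use ATP to clear calcium down to resting levels. Spinal motor neurons are known for low parvalbumin and calbindin, and cord interneurons and dorsal horn neurons for high levels of one or another of these buffers.

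Values are RPKM, read counts scaled by transcript length and library total, so levels can be compared between genes. In series of 4 values the WT libraries come first and the G93A libraries second, with vehicle before SD in each genotype. The unit was inferred from the values, since the header names none. A log2 difference is taken after adding 0.1 RPKM, and a gene counts as past the threshold at 1.5-fold. Depth was estimated at 36700000 to 38600000 fragments per library from the size of the smallest steps in the table, and each member had an estimated 722 fragments or more in every library. Few low values lie near that step, so these depths are rough and no counting interval is given. Microglial markers were higher in both G93A libraries for 7 of 7 genes, with medians on the log2 scale of 2.28 (vehicle pair) and 2.67 (SD pair), and the astrocyte gene Gfap had 441, 386, 2269 and 2707 RPKM. A glial reaction is known for this strain, so the genotype labels have a check in the data, and the SD labels have none.

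Both G93A libraries lay below both WT libraries for 8 of the 10 members, and above them for 0. Over all names, 28% lay below and 39.7% above, and the shares were 32.6% and 43.7% among the 12987 names that averaged 1 RPKM or more. In G93A vehicle against WT vehicle, 3 of 10 members (Calb2, Atp2b2 and Atp2b3) were at least 1.5-fold lower, against 5.31% of all names and 4.34% of those averaging 1 RPKM or more. In G93A + SD against WT + SD, 5 of 10 members (the same 3 with Pvalb and Slc8a3) were at least 1.5-fold lower, against 7.82% and 7.85%. No member was at least 1.5-fold higher in either pair, where 14.4% and 17.1% of all names were (13.1% and 15.8% of those averaging 1 RPKM or more). Lower in both pairs were 3 of 10 members, 2.98% of all names and 3.29% of those averaging 1 RPKM or more, and higher in both were 0 of 10 members, 11.6% and 11.7%. These pairs share no library. The median log2 difference of the members was -0.43 in the vehicle pair and -0.56 in the SD pair, whereas the median over all names was 0.046 and 0.050. In RNA of whole cord, fewer cells of a type and less RNA per cell cannot be told apart.

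**Figure D1:**
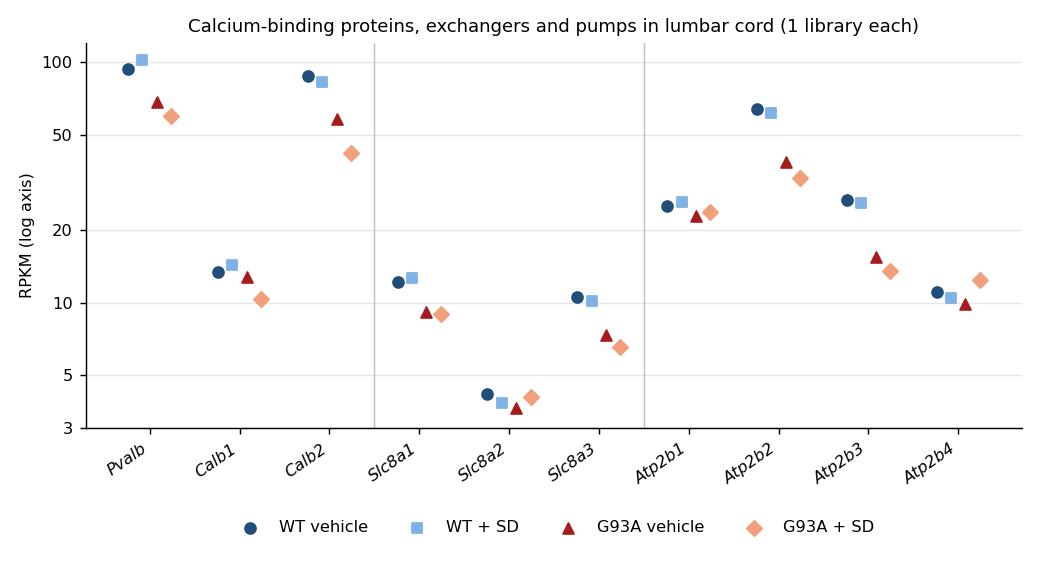
RPKM of each member (log axis) in the 4 libraries, 1 point per library, ordered by family. The WT points lie above the G93A points for every member except Slc8a2 and Atp2b4, where the genotypes overlap.

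Among the calcium-binding proteins, Pvalb had the highest level of all 10 members in each library. Parvalbumin marks fast-spiking interneurons and the large proprioceptive afferents, and in mouse it is also very abundant in fast skeletal muscle. Pvalb (chromosome 15, 78191114 to 78206400, GRCm38) had 93.9 RPKM (vehicle) and 102 RPKM (SD) in WT, and 68.5 and 59.5 RPKM in G93A. Both G93A libraries were thus below both WT libraries, with WT vehicle 1.37-fold above G93A vehicle and WT + SD 1.71-fold above G93A + SD. The 8 skeletal muscle markers together summed to between 1.23 and 1.37 RPKM, 5 of them had a mean under 0.1 RPKM, and Myh4 was at 0 in WT vehicle. Markers of sensory ganglion and nerve root (5 genes) had summed levels of 2.88 and 3.05 RPKM in the SD libraries of WT and G93A and 1.96 and 1.99 RPKM in the vehicle libraries, with Scn10a at 0 in both WT libraries. Their part in the Pvalb values was not tested.

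Calb2, which encodes calretinin and is strong in excitatory interneurons of the dorsal horn, had 87.8 RPKM (vehicle) and 82.9 RPKM (SD) in WT, and 58.1 and 41.9 RPKM in G93A (chromosome 8, 110137502 to 110168210). It was 1.51-fold lower in G93A vehicle, just past the threshold, and 1.98-fold lower in G93A + SD, each against the WT library of the same treatment. The difference in the SD pair, -0.98 on the log2 scale, was the largest of the 10 members. Calb1, which encodes calbindin and marks Renshaw cells and part of the dorsal horn, stayed nearest to WT of the 3 buffers. It had 13.4 RPKM (vehicle) and 14.3 RPKM (SD) in WT, and 12.7 and 10.4 RPKM in G93A (chromosome 4, 15881264 to 15908064). Its genotypes did not overlap, but WT was only 1.05-fold above G93A in the vehicle pair and 1.38-fold in the SD pair. The summed RPKM of the 3 buffers was 195 and 199 in the WT libraries and 139 and 112 in the G93A libraries. Within that sum Calb1 made up 6.87% and 7.19% in the WT libraries and 9.14% and 9.27% in the G93A libraries.

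The sodium-calcium exchangers were the family with the lowest levels. Slc8a1, which encodes NCX1, the exchanger of heart and of many brain cells, had 12.2 RPKM (vehicle) and 12.6 RPKM (SD) in WT, and 9.17 and 8.96 RPKM in G93A (chromosome 17, 81373105 to 81738377). WT was 1.33-fold and 1.41-fold above G93A in the vehicle and SD pairs, short of the threshold both times. Slc8a3, which encodes NCX3, found in brain and skeletal muscle, had 10.5, 10.2, 7.31 and 6.51 RPKM (chromosome 12, 81197915 to 81333180). Its WT level was 1.44-fold above G93A in the vehicle pair and 1.56-fold in the SD pair. Slc8a2, which encodes the brain exchanger NCX2, was the lowest member in every library and showed no order by genotype. It had 4.16 RPKM (vehicle) and 3.82 RPKM (SD) in WT, and 3.63 and 4.05 RPKM in G93A (chromosome 7, 16129826 to 16161063). As a share of the summed exchangers, Slc8a2 made up 15.5% and 14.3% in WT vehicle and WT + SD, and 18.0% and 20.7% in G93A vehicle and G93A + SD. Slc8a3 went the other way, from 39.2% and 38.2% to 36.4% and 33.4%, and Slc8a1 lay between 45.3% and 47.4% in all 4 libraries. Genes on the opposite strand overlap the gene bodies of Slc8a1 (AC122399.1 and Gm11096) and Slc8a3 (Gm3693) and, among the pumps, Atp2b2 (Gm15082 and Gm15083), and no source says whether strand was used in counting. In transcript sequence, compared on both strands, only AC122399.1 shared windows of read length with Slc8a1, 1.34% of those of 1 of its transcripts and none of the other, and Slc8a3 shared none. On the same strand Gm44167 overlaps Atp2b2, and Mir6903 and Gm37368 overlap Atp2b4, without shared windows. Without strand, reads from that shared stretch cannot be told apart.

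The pumps split into a pair of genes that were lower in G93A and a pair that differed little. Atp2b2 encodes PMCA2, a fast pump of neurons and hair cells whose loss causes deafness and ataxia in mice. It had 64.0 RPKM (vehicle) and 61.5 RPKM (SD) in WT, and 38.4 and 33.1 RPKM in G93A (chromosome 6, 113743831 to 114042613). The WT level was 1.67-fold above G93A in the vehicle pair and 1.86-fold in the SD pair. Atp2b3, which encodes PMCA3 and is also mainly neuronal, had 26.8, 25.9, 15.4 and 13.6 RPKM (chromosome X, 73503086 to 73571005). With 1.74-fold and 1.91-fold, it had the largest difference of the members in the vehicle pair. Atp2b1, which encodes PMCA1, the form found in nearly all cells, had 25.3, 26.2, 22.9 and 23.9 RPKM in the same order (chromosome 10, 98914406 to 99026143). Its genotypes did not overlap, yet WT was 1.11-fold and 1.10-fold above G93A, which is -0.15 and -0.13 for G93A minus WT on the log2 scale, beside 0.050 and 0.061 between SD and vehicle within WT and G93A. Atp2b4, which encodes the widespread PMCA4, had 11.1, 10.5, 9.86 and 12.4 RPKM (chromosome 1, 133699457 to 133801041), so that G93A vehicle was the lowest library and G93A + SD the highest.

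The balance of the pump family thus differed between the WT and the G93A libraries, in a measure that no rescaling of a library can move. Atp2b2 made up 50.3% and 49.6% of the summed pumps in WT vehicle and WT + SD, and 44.4% and 39.9% in G93A vehicle and G93A + SD. Atp2b3 made up 21.1% and 20.9% against 17.8% and 16.4%. In turn Atp2b1 made up 19.9% and 21.1% in WT against 26.4% and 28.8% in G93A, and Atp2b4 made up 8.71% and 8.44% against 11.4% and 14.9%. In WT vehicle Atp2b3 was above Atp2b1, in WT + SD the levels were 25.9 and 26.2 RPKM, and in both G93A libraries Atp2b1 was the higher of the pair. The summed pumps had 127 and 124 RPKM in WT against 86.6 and 82.9 RPKM in G93A.

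**Figure D2:**
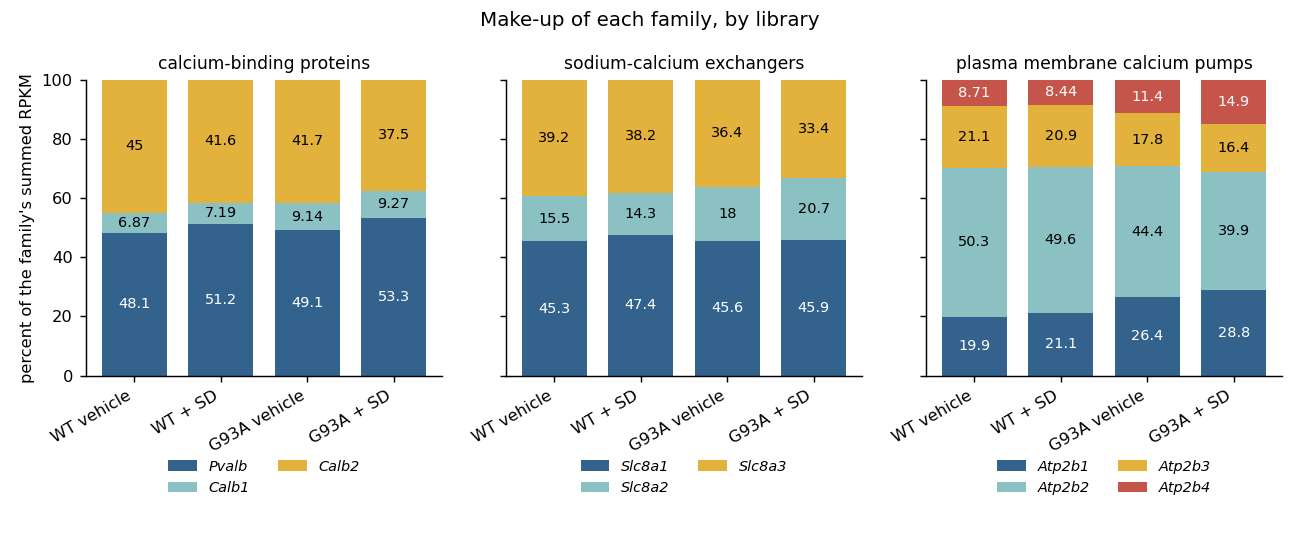
Percent of each family's summed RPKM (stacked bars from 0 to 100) made up by each member, in the 4 libraries. Within the pumps, Atp2b2 goes from 50.3% in WT vehicle to 39.9% in G93A + SD, while Atp2b1 and Atp2b4 take larger shares in both G93A libraries.

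Start regions of a pump and an exchanger with the lower levels in G93A (Atp2b2 and Slc8a3) are shown beside a member of the same family that did not pass the threshold in either pair (Atp2b1 and Slc8a2). Each is the 250 bases upstream of the start of a listed transcript, on the gene's own strand, 5′ to 3′, from RefSeq on GRCm38.p6. Promoter sequences were matched for 7 of the 10 members, and Calb1, Calb2 and Atp2b3 had no entry. Capitals mark the GC box GGGCGG, the CCAAT box CCAAT or the E box CAGCTG, and a match on the opposite strand is printed as its reverse complement. The TATA box TATAAA, the cyclic AMP response element TGACGTCA and the further E box CACGTG were searched in the same way on both strands.
Atp2b2, chr6:114042081-114042330, minus strand: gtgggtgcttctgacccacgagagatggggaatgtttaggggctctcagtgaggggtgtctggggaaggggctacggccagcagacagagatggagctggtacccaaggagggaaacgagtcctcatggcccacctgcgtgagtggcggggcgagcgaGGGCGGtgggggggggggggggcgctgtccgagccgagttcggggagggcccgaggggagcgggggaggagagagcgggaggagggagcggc
Atp2b1, chr10:98914902-98915151, plus strand: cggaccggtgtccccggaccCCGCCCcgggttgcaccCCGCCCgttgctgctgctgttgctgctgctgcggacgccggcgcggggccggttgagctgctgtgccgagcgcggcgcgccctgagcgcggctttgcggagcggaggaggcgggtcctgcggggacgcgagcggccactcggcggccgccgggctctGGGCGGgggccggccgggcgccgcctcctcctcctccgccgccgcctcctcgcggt
Slc8a3, chr12:81333181-81333430, minus strand: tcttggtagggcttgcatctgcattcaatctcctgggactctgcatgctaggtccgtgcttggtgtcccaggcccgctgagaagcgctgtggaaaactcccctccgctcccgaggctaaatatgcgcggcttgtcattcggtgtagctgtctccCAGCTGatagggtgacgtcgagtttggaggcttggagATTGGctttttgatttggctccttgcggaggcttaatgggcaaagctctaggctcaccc
Slc8a2, chr7:16129576-16129825, plus strand: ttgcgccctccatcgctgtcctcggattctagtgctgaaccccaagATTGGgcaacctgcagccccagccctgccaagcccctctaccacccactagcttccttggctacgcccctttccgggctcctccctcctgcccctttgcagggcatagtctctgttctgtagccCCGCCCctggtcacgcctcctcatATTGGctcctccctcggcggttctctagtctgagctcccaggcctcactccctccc

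The Atp2b1 window, the promoter of a gene used in nearly all cells, had 80.8% G and C with 41 CG steps and 3 GC boxes. That of Atp2b2 had 69.6% with 16 CG steps and 1 GC box, and that of Slc8a2 had 63.2% with 9 CG steps, 1 GC box and 2 CCAAT boxes. Slc8a3 had 56.0% with 11 CG steps, 1 CCAAT box and 1 E box. Over all 32851 promoters of this length the median was 52.4% G and C and 6 CG steps, 32.7% held a GC box, 33.8% a CCAAT box and 13.0% the E box CAGCTG. None of these 4 windows held TATAAA, TGACGTCA or CACGTG, which 12.4%, 1.55% and 6.02% of all promoters held. Slc8a1 and Atp2b4 also passed the threshold in neither pair, and their windows are not printed. They had 50.4% and 45.6% G and C with 8 and 2 CG steps, and none of the motifs searched. A link between these sequences and the levels was not tested. Atp2b2 has a further listed transcript that starts inside the gene, about the base 113891539, with 55.6% G and C and 6 CG steps upstream. Its RPKM row was close to that of the outer start in every library (64.6 and 63.5 in WT vehicle, 38.8 and 38.1 in G93A vehicle), and the values do not tell the starts apart.

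**Figure D3:**
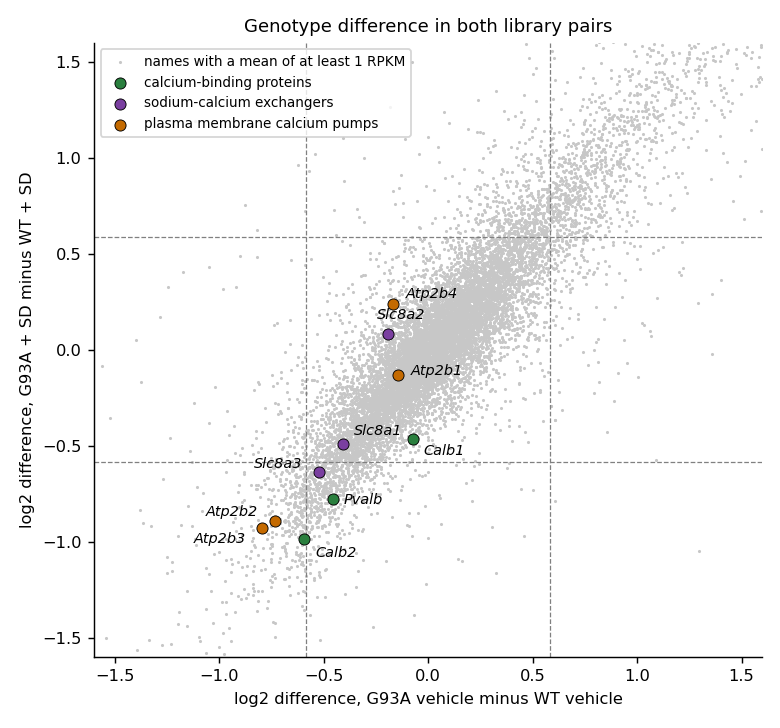
Log2 difference (pseudocount of 0.1 RPKM) between G93A and WT in the vehicle pair (x axis) and in the SD pair (y axis), with members in colour and names of at least 1 RPKM in grey. Dashed lines mark 1.5-fold and names beyond the axes are not drawn. Atp2b2, Atp2b3 and Calb2 lie past the lower line on both axes.

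Most lists of neuron markers moved in the same direction as the members, and their part in these differences was not tested. All 6 pan-neuronal markers were lower in both G93A libraries, with median log2 differences of -0.46 in the vehicle pair and -0.61 in the SD pair, and Snap25 had 1268, 1292, 782 and 661 RPKM. Their summed level was between 2056 and 2058 RPKM in the WT libraries and between 1177 and 1363 in the G93A libraries. All 5 inhibitory neuron markers were lower in both pairs too (medians of -0.54 and -0.53). Gad1, the highest of them by mean level, had 50.8, 51.0, 36.2 and 43.2 RPKM. Slc6a5, the glycine transporter of inhibitory terminals, had the largest differences of the list. It had 45.9 and 50.4 RPKM in WT vehicle and WT + SD against 21.5 and 17.5 in G93A vehicle and G93A + SD. The excitatory list had medians of -0.28 in the vehicle pair and 0.31, the opposite sign, in the SD pair. Its main gene, Slc17a6, had 58.7 and 60.1 RPKM in the WT libraries and 36.5 and 32.2 in the G93A libraries, but 3 of the 5 genes were higher in the SD pair. Motor neuron markers had medians of -0.36 and -0.68, with 5 of 7 genes lower in each pair. Summed levels were 92.5 to 96.6 RPKM in WT and 68.6 to 85.7 in G93A. The pan-neuronal markers ran from -0.70 to -0.36 in the vehicle pair and from -0.97 to -0.17 in the SD pair, with Snap25 at -0.70 and -0.97 and Elavl4 at -0.64 and -0.82. Only Atp2b2 and Atp2b3 lay below that range in the vehicle pair and only Calb2 in the SD pair, where Snap25 was close behind. Set beside their medians alone, Atp2b3 (-0.79 and -0.93), Atp2b2 (-0.73 and -0.89), Calb2 (-0.59 and -0.98) and Slc8a3 (-0.52 and -0.64) had larger differences in both pairs. Slc8a1 (-0.41 and -0.49), Calb1 (-0.074 and -0.46), Atp2b1 (-0.15 and -0.13), Slc8a2 (-0.19 and 0.084) and Atp2b4 (-0.17 and 0.24) had smaller ones or the opposite sign, and Pvalb (-0.46 and -0.78) lay close to the median in the vehicle pair and beyond it in the SD pair.

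The other genes of calcium handling were taken from 7 lists with 62 genes in the table. In the vehicle pair 5 of the 62 were at least 1.5-fold lower and 6 higher, and in the SD pair 10 were lower and 9 higher, with median log2 differences of -0.25 and -0.26. Of all names, 5.31% were lower and 14.4% higher in the vehicle pair, and 7.82% and 17.1% in the SD pair. Among 20 other EF-hand sensors and buffers, 4 were lower and 2 higher in the vehicle pair, and 5 lower and 3 higher in the SD pair. These counts include genes near 0 RPKM, namely Scgn among the lower of the vehicle pair and Rcvrn among the higher of the SD pair, and the shares of all names are those just given. Ncs1, a neuronal calcium sensor, had 98.1, 103, 63.2 and 56.3 RPKM, and Necab3, a neuronal EF-hand protein, had 21.8, 23.5, 14.4 and 10.5. Both were past 1.5-fold in both pairs. The EF-hand genes past 1.5-fold higher in both pairs were S100a6 and S100a1, of the S100 family. S100a6 had 22.2 and 21.7 RPKM in WT vehicle and WT + SD and 199 and 318 in G93A vehicle and G93A + SD, and S100a1 had 88.3 and 73.2 against 188 and 206. S100b, of the same family, was lower in both pairs by less than 1.5-fold, with 465, 469, 411 and 396 RPKM. Astrocyte markers moved with S100a6 and S100a1, with 4 of 6 genes at least 1.5-fold higher in the vehicle pair and 5 of 6 in the SD pair. The summed level of the astrocyte markers was 929 to 990 RPKM in WT and 3066 to 3639 in G93A. The part of astrocytes in these values was not tested.

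**Figure D4:**
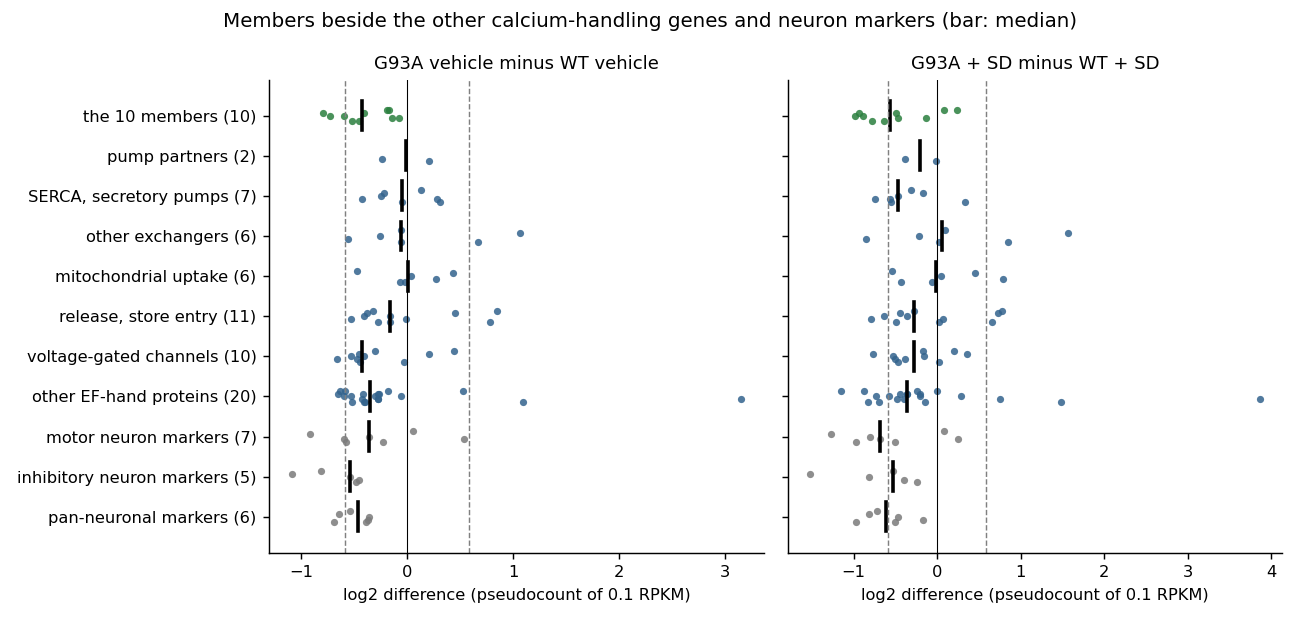
Log2 difference (x axis, pseudocount of 0.1 RPKM) of each gene in the vehicle pair (left) and the SD pair (right), for the members, the 7 calcium-handling lists and 3 neuron marker lists. Black bars are medians and dashed lines 1.5-fold. The members have medians of -0.43 and -0.56, and the voltage-gated channels and other EF-hand proteins also lie mostly below 0.

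Pumps of internal stores stayed within 1.5-fold in both genotype pairs. For the counts that follow, 5.31% of all names were at least 1.5-fold lower and 14.4% higher in the vehicle pair. In the SD pair the shares were 7.82% and 17.1%. Atp2a2, which encodes SERCA2, the main pump of the endoplasmic reticulum in brain, had 152, 157, 113 and 107 RPKM, with log2 differences of -0.43 and -0.56. Of the 7 genes in its list, 0 were past the threshold in the vehicle pair and only Sln, which encodes a regulator of these pumps and was under 0.2 RPKM in every library, was in the SD pair. The partner proteins that pumps of the Atp2b family need at the membrane stayed within 1.5-fold. Nptn had 210, 219, 178 and 167 RPKM in the same order, and Bsg had 156, 164, 179 and 162. Among potassium-dependent and mitochondrial exchangers the directions were mixed. Slc24a2, a neuronal exchanger, had 65.4 and 71.1 RPKM in WT vehicle and WT + SD against 44.4 and 39.5 in G93A vehicle and G93A + SD. Slc24a4 was higher in both pairs, with 3.49 and 3.34 against 7.42 and 10.1 RPKM, as was Slc8b1, the mitochondrial exchanger (listed in the table as Slc24a6), with 2.25 and 2.15 against 3.63 and 3.95 RPKM. Genes of mitochondrial uptake went both ways, with 3 of 6 lower and 3 higher by any amount in each pair, medians of 0.0068 and -0.0083, and 0 past 1.5-fold in the vehicle pair and 1 higher in the SD pair. Of 11 release and store entry genes, 0 were lower and 2 higher past 1.5-fold in the vehicle pair, and 2 lower and 3 higher in the SD pair, with medians of -0.17 and -0.27. The ryanodine receptors Ryr2 (-0.53 and -0.79 on the log2 scale) and Ryr3 (-0.41 and -0.63) were the lower genes of the SD pair, and Orai1 (0.45 and 0.74) was higher in that pair. Past 1.5-fold higher in both pairs, Itpr2, an inositol trisphosphate receptor, had 2.57 and 2.54 RPKM in WT against 4.70 and 4.42 in G93A, and Orai3, a store-operated channel, had 3.79 and 4.37 against 6.58 and 6.98. Stim1, the store sensor with the highest level of that list, lay between 17.0 and 17.9 RPKM. Of 10 voltage-gated calcium channel pore genes, Cacna1g was at least 1.5-fold lower in the vehicle pair and Cacna1i in the SD pair, and none was in both, with 8 lower by any amount in the vehicle pair and 7 in the SD pair. Cacna1a, the channel of transmitter release and the highest of these, had 10.5, 9.31, 7.71 and 6.73 RPKM.

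In WT mice all 10 members were close between SD and vehicle. The log2 difference of WT + SD against WT vehicle ran from -0.12 for Slc8a2 to 0.12 for Pvalb, with a median of -0.049, and 0 of 10 members were past 1.5-fold (2.8% of all names were lower and 2.25% higher, and 1.16% and 0.732% of those averaging 1 RPKM or more). In G93A + SD against G93A vehicle 0 of 10 members were past 1.5-fold as well, where 2.55% of all names were lower and 2.97% higher, and 0.932% and 1.24% of those averaging 1 RPKM or more. The median difference was -0.17, and 7 members were lower and 3 higher by any amount. Over all names the median SD difference was 0.0044 in WT and 0.0068 in G93A. All 3 buffers were lower in G93A + SD than in G93A vehicle, with differences of -0.47 for Calb2, -0.29 for Calb1 and -0.20 for Pvalb on the log2 scale. Atp2b2 (-0.22), Atp2b3 (-0.18) and Slc8a3 (-0.16) were lower too. The highest difference was 0.33 for Atp2b4. Pan-neuronal markers went along, with a median of -0.16 and 5 of 6 genes lower in G93A + SD, as did motor neuron markers with a median of -0.41 and 6 of 7 lower. Oligodendrocyte markers were lower for 6 of 6 genes, with a median of -0.16. Inhibitory and excitatory neuron markers had medians of 0.11 and 0.053. Astrocyte markers were higher for 6 of 6 genes (median of 0.22) and markers of meninges and fibroblasts for 4 of 4 (median of 0.53, with 2 past 1.5-fold). The part of these cells in the members' values was not tested. The comparison shares the G93A vehicle library with the genotype comparison under vehicle and the G93A + SD library with that under SD.

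**Figure D5:**
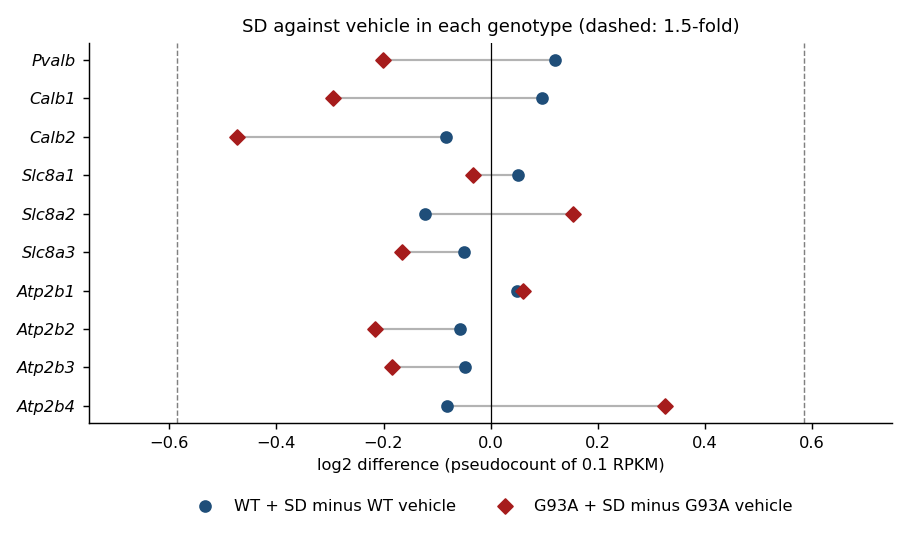
Log2 difference (x axis, pseudocount of 0.1 RPKM) of SD against vehicle for each member in WT (circles) and in G93A (diamonds). All points lie within 1.5-fold, the WT points between -0.12 and 0.12 and the G93A points between -0.47 and 0.33.

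The order of levels was the same at its ends in all libraries, with Pvalb, Calb2 and Atp2b2 at the top in that order and Slc8a3 above Slc8a2 at the bottom. In between, Atp2b1 and Atp2b3 exchanged places, and Calb1 was above Slc8a1 in all 4 libraries, with means of 12.7 and 10.7 RPKM. Atp2b4, with a mean of 10.9 RPKM, was below both in the WT libraries, between them in G93A vehicle and above both in G93A + SD, so its place among them is not settled by these data. Cross-matching between the family members is small. Of the 53-base windows of the Atp2b2 and Atp2b3 transcripts, 4 were shared between them, 139 of 7078 windows of Atp2b1 were shared with Gm29808, and 246 windows of 1 Slc8a1 transcript were shared with AC122399.1.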

How the data were processed

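RNA of the lumbar cord was polyA-selected by the authors and sequenced as 53 bp reads. Per the labels and methods, STAR aligned the reads to GRCm38 (mm10), and the methods name HTSeq for counts by Ensembl genes. The authors deposited 1 table with 23750 rows of RefSeq transcripts and 4 library columns, whose RPKM unit was inferred because values multiplied by transcript length sum to nearly the same total in each library. The methods do not say how values by RefSeq transcript were made from counts by Ensembl gene. The authors' ratio columns were not used. The mean of a name's rows was taken as its RPKM (4 members have more than 1 row). Members, lists and the rule for named genes (all members, the highest gene of each pathway list, and pathway genes averaging 1 RPKM or more past 1.5-fold in both genotype or both SD pairs) were chosen with earlier results of these data known. Genes outside that rule (Bsg, Sln, Scgn, Rcvrn, Ryr2, Ryr3, Orai1, Cacna1g, Cacna1i, Snap25, Elavl4, Slc6a5, Slc17a6, Gfap, Myh4 and Scn10a) were named after their values were seen. The highest gene of 2 pathway lists is not reported here. Log2 differences used a pseudocount of 0.1 RPKM. Fragment numbers assume that the most frequent low value multiplied by GENCODE M21 transcript length is 1 fragment, and they are estimates. Lengths were found for 97.0% of rows. Alternatives were a pseudocount of 1, no pseudocount, median-ratio scaling, a 2-fold threshold, any single row of a name and the sum of its rows. Tables were made with pandas 2.3.3 and numpy 2.4.6 under Python 3.11.15 and plots with matplotlib 3.10.9, and the functions were tested on simulated data.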

Additional observations from a re-analysis of the deposited data

Results flagged for a closer look

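The SD difference had opposite signs in WT and G93A for 5 members, and the genotype difference had opposite signs under vehicle and SD for 2 of them. With 1 library per group these differences were not tested. The share of all names with opposite signs was not computed. All SD differences of the members in WT lay between -0.12 and 0.12, so small shifts can change their sign. On the log2 scale, the SD difference in G93A minus that in WT was -0.32 for Pvalb, -0.39 for Calb1 and -0.085 for Slc8a1, 0.28 for Slc8a2 and 0.41 for Atp2b4. For every member this value equals the genotype difference under SD minus that under vehicle. Pvalb had 0.12 in WT and -0.20 in G93A, and Atp2b4 had -0.081 in WT and 0.33 in G93A. Slc8a1 had 0.052 and -0.033, which are among the smallest differences of the members.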

How the results depend on the processing

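With a threshold of 2-fold, 0 members were past it in the vehicle pair and 0 in the SD pair, against 3 and 5 at 1.5-fold. The share of all names past 2-fold was not computed, so these counts have no background beside them. Every other alternative run kept the counts within 1.5 times, and the median differences of the members moved by less than 0.1 (log2) under median-ratio scaling, without a pseudocount or with one of 1. Of 192 recomputed differences of single members, 191 stayed on the same side of 1.5-fold and 0 changed sign. The exception was Slc8a3 in the SD pair, which had -0.57 with a pseudocount of 1 and was no longer past. The number of members whose genotypes did not overlap stayed at 8 under median-ratio scaling and with the sum of rows. The share of names past 1.5-fold was 1.89% (WT + SD against WT vehicle) and 2.17% (G93A + SD against G93A vehicle) among names with a mean of at least 1 RPKM, against 5.04% and 5.52% over all names. Each group has 1 library, so no replicate numbers pair the groups. A fit of genotype over both treatments, with treatment as a block and 1 residual degree of freedom, was not run, and leaving out a library would leave its group empty.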
